A study of Mus musculus with 11 samples.

Results

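The proximal tubule reabsorbs nearly all of the albumin, vitamin-binding proteins and peptide hormones that pass the glomerulus, and it does so by receptor-mediated endocytosis. The 10 genes described here encode that apparatus, from the receptors at the brush border to the endosomes that send them back: Lrp2, Cubn, Amn, Lrpap1, Fcgrt, Dab2, Ap2m1, Clcn5, Ocrl and Rab11a. They are a textbook list, but they were chosen with earlier results of these data known, and they were found by gene symbol. All 10 are among the 53801 genes of the count table and among the 18160 genes with enough reads to be tested.

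Megalin (Lrp2) and cubilin (Cubn) are large receptors at the apical membrane with many filtered ligands, and cubilin depends on its partner amnionless (Amn) to reach the surface and to be internalized. The loaded receptors are gathered into clathrin-coated pits by adaptors, the ligands are released as the endosome acidifies, and the receptors return to the membrane through recycling endosomes. Losing megalin, cubilin, ClC-5 (Clcn5) or OCRL (Ocrl) function causes low-molecular-weight proteinuria or albuminuria in patients.

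RNA-Seq was performed on kidney cortex from 6 Cpt1aCKO mice and 5 floxed controls, all male, on a mixed background and aged for 2 years. Cpt1aCKO mice carry floxed Cpt1a alleles deleted by tetO-Cre under Pax8-rtTA, a driver of the tubular epithelium along the nephron, so that glomerular, vascular and interstitial cells keep Cpt1a, which encodes the enzyme that commits long-chain fatty acids to mitochondrial oxidation. Both groups were fed doxycycline for 3 weeks at 5 to 8 weeks of age, and the labels do not say whether the floxed controls carried the driver or the Cre transgene. Each mouse gave 1 library, and the question was whether the endocytic genes differ between the genotypes in the aged kidney.

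The libraries held 43027049 to 57459929 reads on genes in Cpt1aCKO mice and 39628721 to 56241595 in floxed controls. Cpt1a itself, in CPM (counts relative to the TMM-adjusted size of each library), ranged from 38.4 to 97.3 in Cpt1aCKO mice and from 418 to 548 in floxed controls, so that every library followed its label. Cpt1aCKO mouse S7602 stood apart by the number of genes with at least 1 read, 35024, against 23943 to 28165 in the other Cpt1aCKO mice and 24909 to 30253 in floxed controls. Without it, the log2 fold change of Lrpap1 was -0.17 against -0.14 with all mice, that of Ocrl 0.06 against 0.02, that of Amn 0.03 against 0.05 and that of Rab11a -0.05 against -0.03, and Fcgrt and Dab2 stayed at an unadjusted p under 0.05. Of 15 other proximal tubule markers, the sodium phosphate cotransporter Slc34a1 averaged 9743 ± 1180 CPM in Cpt1aCKO mice and 9959 ± 875 CPM in floxed controls (SD, n = 6 and 5), and the summed markers came to 24730 to 30420 CPM in Cpt1aCKO mice and 27830 to 30550 CPM in floxed controls. All 15 were expressed in both groups, but they did not move as one: with DESeq2, Slc6a19 was higher (log2 fold change 0.32, adjusted p = 0.0176) and Miox lower (-0.39, adjusted p = 0.0334) in Cpt1aCKO mice, neither of them past adjustment with edgeR. All 7 S3 segment markers and all 5 thick ascending limb markers had negative fold changes (median log2 fold change -0.28 and -0.12). So did 5 of 6 distal convoluted or connecting tubule markers (median -0.23), while 4 of 10 collecting duct markers were positive (median -0.02). At an unadjusted p under 0.05, 2.57% of all genes tested were lower. The markers lower there were 2 of S3, 2 of the thick ascending limb, 3 distal and 1 of the collecting duct, with 0 past adjustment. The part of segment composition in the endocytic genes was not tested. In unsorted cortex tissue, fewer proximal tubule cells and less RNA per cell cannot be told apart.

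The sequences just upstream of Lrp2, Cubn and Dab2 are shown because, of the 45 pairs of these genes, Lrp2 with Cubn and Cubn with Dab2 had the highest Pearson correlations of log2 CPM over the mice, though not the highest by rank. Each window runs from 250 bases before to 50 bases after a RefSeq gene start (GRCm38.p6), 5′ to 3′ on the strand of the gene. The Lrp2 window is chr2:69585980-69586279 and the Cubn window chr2:13491827-13492126, both on the minus strand, and the Dab2 window chr15:6386498-6386797 is the second of its 2 windows, on the plus strand. Capitals mark GC boxes in Lrp2, the core of an HNF1 palindrome in Cubn and an HNF1 half-site in Dab2. HNF1 factors are regulators of many proximal tubule genes.
Lrp2: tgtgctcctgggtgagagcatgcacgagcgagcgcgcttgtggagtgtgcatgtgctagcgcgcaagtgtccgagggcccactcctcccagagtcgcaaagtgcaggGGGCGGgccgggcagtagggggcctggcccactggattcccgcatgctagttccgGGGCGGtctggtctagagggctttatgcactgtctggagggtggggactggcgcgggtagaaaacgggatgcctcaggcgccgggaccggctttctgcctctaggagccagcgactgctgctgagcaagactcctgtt
Cubn: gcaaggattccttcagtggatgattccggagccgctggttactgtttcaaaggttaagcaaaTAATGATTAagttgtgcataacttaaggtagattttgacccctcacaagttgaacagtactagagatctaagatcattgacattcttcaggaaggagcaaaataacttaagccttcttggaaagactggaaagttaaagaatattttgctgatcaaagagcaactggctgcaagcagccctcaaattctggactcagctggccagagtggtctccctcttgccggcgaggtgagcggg
Dab2: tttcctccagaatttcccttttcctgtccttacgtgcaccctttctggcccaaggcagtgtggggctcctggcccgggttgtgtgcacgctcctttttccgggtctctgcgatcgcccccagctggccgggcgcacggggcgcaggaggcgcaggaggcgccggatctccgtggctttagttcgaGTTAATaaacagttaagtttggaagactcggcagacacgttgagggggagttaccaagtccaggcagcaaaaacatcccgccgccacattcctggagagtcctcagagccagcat
The motifs searched, on both strands, were the GC box GGGCGG, the HNF1 half-site GTTAAT, the HNF1 palindrome core TAATNATTA (the inner bases of the half-site as an inverted repeat around 1 free base, which can overlap the half-site), the nuclear receptor half-site AGGTCA, the E-box CACGTG and the TATA box TATAAA. Of all 32851 RefSeq windows of this length, 35.7% hold the GC box, 7.1% the half-site and 0.618% the palindrome core, which was added after the Cubn window had been read. AGGTCA is in 16.3% of all windows, CACGTG in 7.15% and TATAAA in 13.6%. The GC box is in 7 of the 12 windows of these genes, those of Lrp2, Amn, Ocrl, Ap2m1, Rab11a and Lrpap1 and 1 of the 2 of Clcn5. The palindrome core is only in the Cubn window among the 12, the half-site only in the Dab2 window shown, the TATA box only in the other Clcn5 window, and the E-box in the windows of Amn and Ap2m1. AGGTCA is in 0 of the 12. The Lrp2 and Cubn windows share none of the 6 motifs. A match in this window is a run of letters and was not tested as a binding site.

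No gene of the apparatus differed between the genotypes at an adjusted p under 0.05. The count was 0 of 10 with edgeR (quasi-likelihood test, Benjamini-Hochberg adjustment over all genes tested), with DESeq2 and with voom, and the smallest adjusted p of the 10 was 0.772, 0.438 and 0.591 in those tools. Of all genes tested, 0.011% were higher and 0.00551% lower in Cpt1aCKO mice at that threshold with edgeR. With DESeq2 the shares were 0.196% and 0.13% of the 15329 genes to which it gave an adjusted p. At an unadjusted p under 0.05, 2 of the 10 were higher in Cpt1aCKO mice, Fcgrt and Dab2, and 0 were lower, where 3.35% of all genes tested were higher and 2.57% lower. The same 2 passed that looser threshold with DESeq2 and with voom. The fold change was positive for 7 of the 10, against 51.4% of all genes tested, and the median log2 fold change was 0.07 for the 10 and 0.01 for all genes. The groups of mice overlapped for all 10 in CPM, where 0.341% of all genes were higher and 0.27% lower without overlap.

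**Figure D1:**
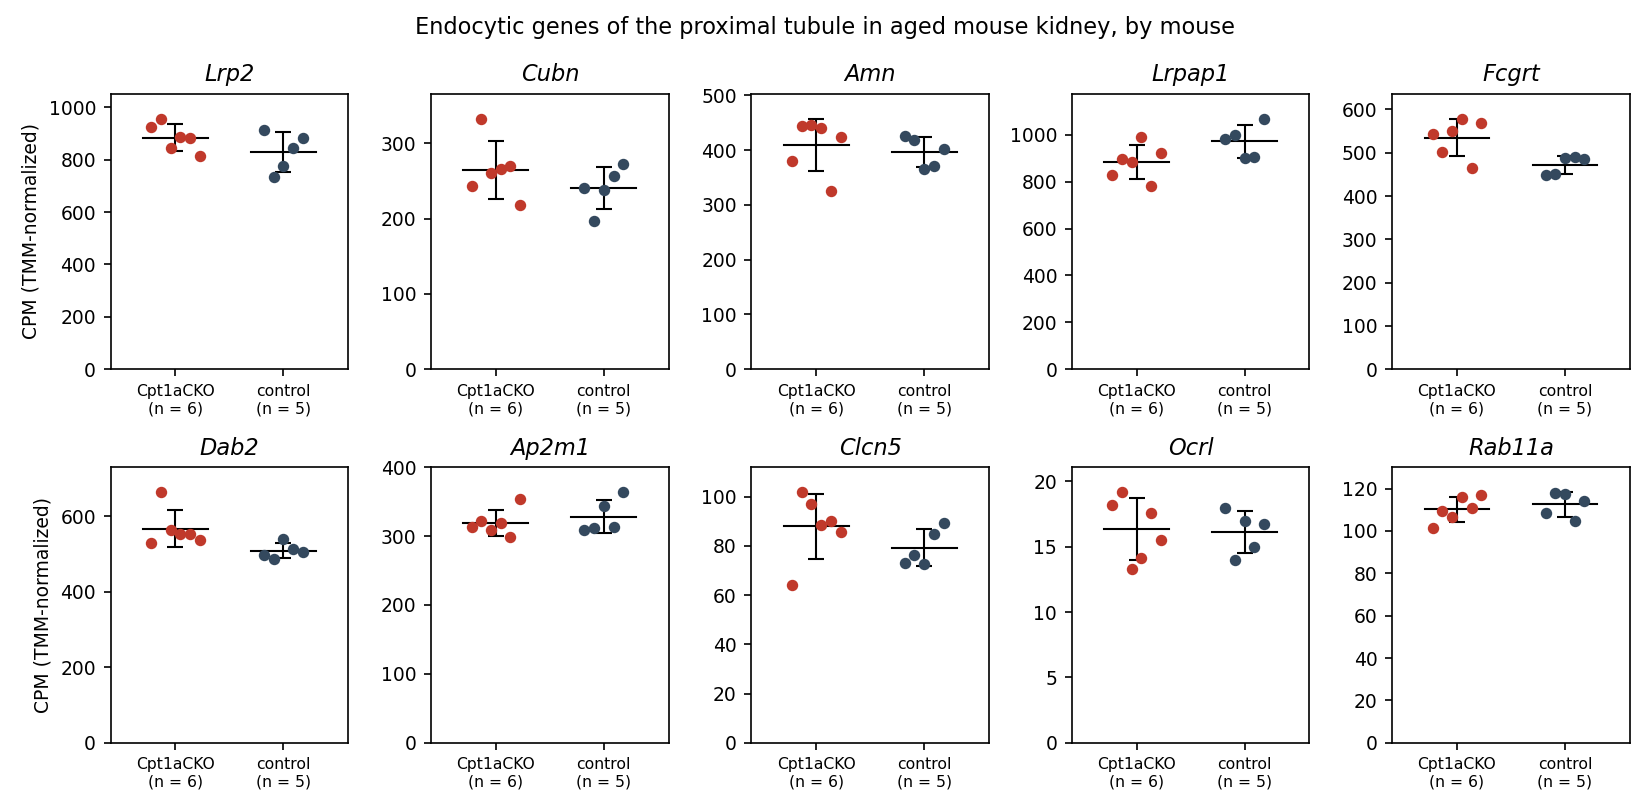
Each panel shows 1 gene, with a point for each mouse, in TMM-normalized CPM on an axis from 0; the 6 Cpt1aCKO mice are on the left and the 5 floxed controls on the right, and black lines give the mean ± SD. In every panel the groups overlap; Fcgrt and Dab2 show most Cpt1aCKO mice above the controls, and Lrpap1 shows 4 of 6 below them.

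**Figure D2:**
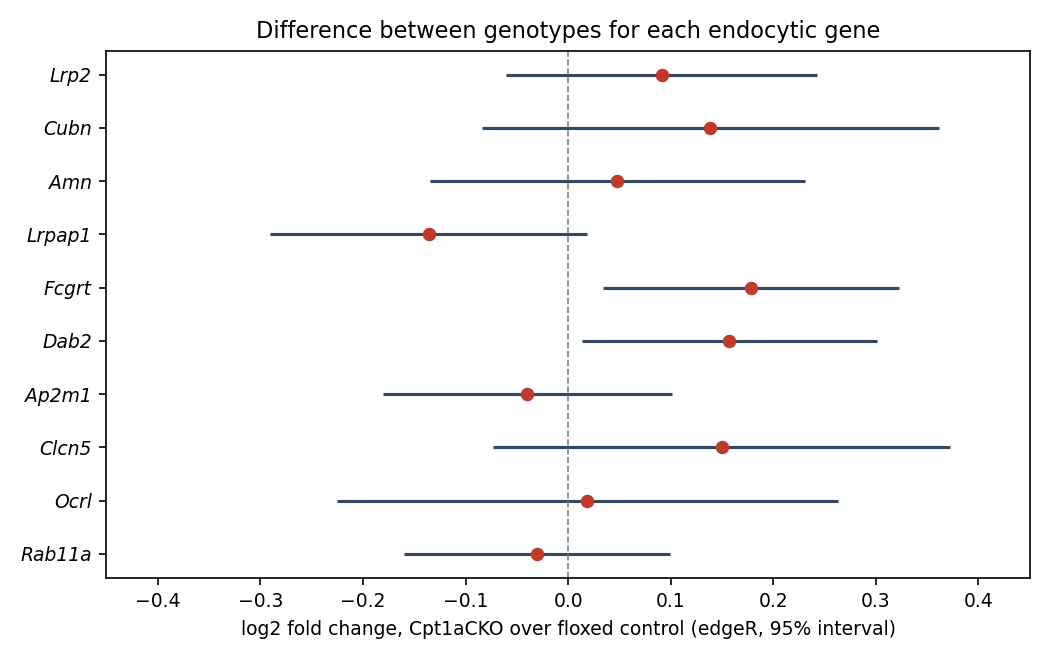
The log2 fold change of each gene, Cpt1aCKO over floxed control, is plotted with its 95% interval from edgeR. The intervals of Fcgrt and Dab2 lie above 0, those of the other 8 genes cross it, and no gene passed after adjustment.

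Megalin, the largest of the receptors, varied little between mice. Lrp2 had 813 CPM in the lowest, 883 in the median and 956 in the highest of the Cpt1aCKO mice, against 915, 733, 775, 844 and 883 CPM in the 5 floxed controls. In 2 Cpt1aCKO mice the value exceeded all controls and in 2 controls it lay below every Cpt1aCKO mouse, with overlap between. The log2 fold change was 0.09 ± 0.07 (SE; edgeR, adjusted p = 0.891; exact permutation p = 0.191), a change of 6.5% with a 95% interval from -4.08% to 18.3%. Without control S7601, the lowest of all mice, it was 0.05.

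Cubilin varied more. Cubn had 218, 263 and 333 CPM in the lowest, median and highest Cpt1aCKO mouse, against 241, 196, 238, 256 and 273 CPM in the floxed controls. Its highest value, in S2394, belonged to a Cpt1aCKO mouse and its lowest, in S7601, to a control, while the other 9 mice intermingled. The log2 fold change was 0.14 ± 0.10 (SE; edgeR, adjusted p = 0.889), with a 95% interval from -5.68% to 28.5%. It was 0.065 without S2394 and 0.074 without S7601. Amnionless, which anchors cubilin in the membrane, averaged 409.6 ± 47.7 CPM in Cpt1aCKO mice and 396 ± 27.2 CPM in floxed controls (SD, n = 6 and 5), and its interval ran from -8.91% to 17.3%. With all mice Amn had a log2 fold change of 0.05, which was 0.10 without S7763 and 0.02 without S7762.

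Because cubilin and amnionless work as 1 complex and megalin assists it, their reads were also compared as ratios within each mouse, which do not depend on the scaling between libraries. The reads of Lrp2 over Cubn came to 3.37 ± 0.345 in Cpt1aCKO mice and 3.46 ± 0.274 in floxed controls (SD, n = 6 and 5; exact permutation p = 0.606, the same after adjustment over 3 ratios). The ratio of Cubn over Amn was 0.654 ± 0.116 in Cpt1aCKO mice and 0.611 ± 0.0924 in floxed controls (SD, n = 6 and 5; exact permutation p = 0.539, adjusted p = 0.606). Neither ratio separated the genotypes beyond the spread between mice. The log2 difference of Lrp2 over Cubn was -0.04 and turned to 0.0041 without S2394, and that of Cubn over Amn was 0.09 and fell to 0.0022 without S7601. These are ratios of reads, not per length, so they do not give the ratio of molecules.

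The chaperone of the family ran the other way. Lrpap1, the receptor-associated protein that keeps ligands off megalin in the endoplasmic reticulum, had 781, 891 and 991 CPM in the lowest, median and highest Cpt1aCKO mouse, against 980, 998, 903, 907 and 1069 CPM in the floxed controls. In CPM, 4 Cpt1aCKO mice lay below every control and the other 2 lay among the controls. This split did not hold per length, as given below. The log2 fold change was -0.14 ± 0.07 (SE; edgeR, unadjusted p = 0.0806, adjusted p = 0.863; exact permutation p = 0.0758), with a 95% interval from -18.2% to 1.3%. Without S7602, the highest Cpt1aCKO mouse for this gene, the log2 fold change was -0.17 with an unadjusted p of 0.0318 and an adjusted p of 0.699.

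The reads of Lrpap1 over Lrp2 gave the widest gap of the 3 ratios. In Cpt1aCKO mice the ratio was 0.894, 0.939, 1.05, 1.12, 0.887 and 1.14, against 1.07, 1.36, 1.16, 1.07 and 1.21 in floxed controls. In all, 4 of the 6 Cpt1aCKO mice lay below every control and the other 2 within the control range. The means were 1.004 ± 0.112 in Cpt1aCKO mice and 1.18 ± 0.12 in floxed controls (SD, n = 6 and 5), a log2 difference of -0.23 with an exact two-sided permutation p of 0.0433, which became 0.13 after adjustment over the 3 ratios. The difference therefore did not pass, and it ranged from -0.27 to -0.18 with each mouse left out in turn.

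**Figure D3:**
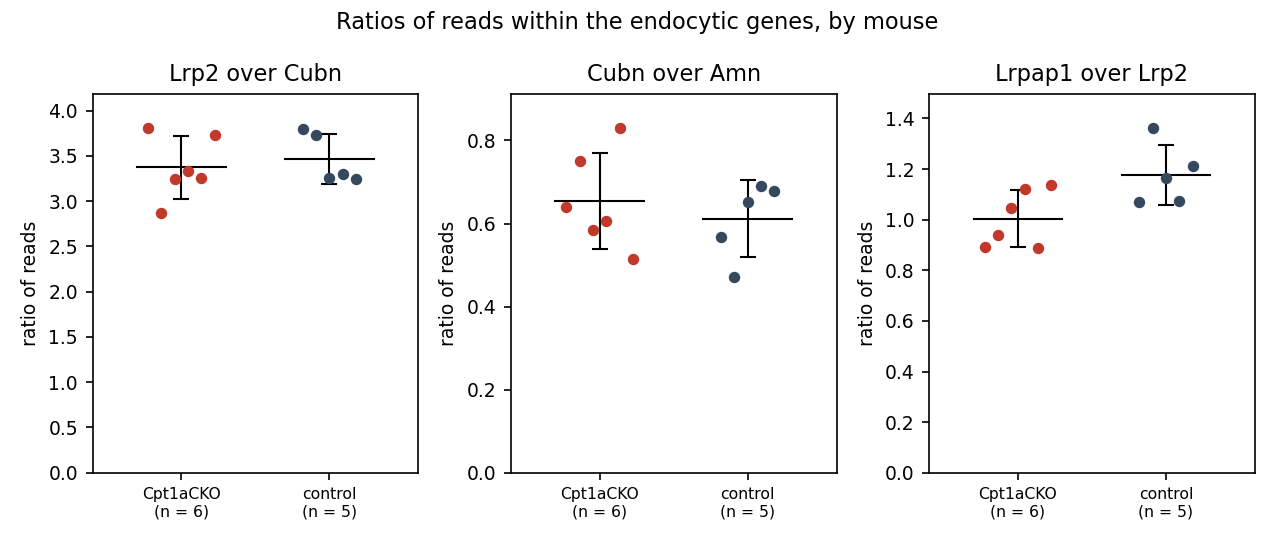
The 3 ratios of reads within each mouse are plotted with Cpt1aCKO mice on the left and floxed controls on the right; points are mice and black lines the mean ± SD. For Lrpap1 over Lrp2, 4 of 6 Cpt1aCKO mice lie below every control, and for the other ratios the groups intermingle.

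Fcgrt had the largest relative difference of the 10. It encodes the heavy chain of the neonatal Fc receptor, which binds albumin and IgG in acidic endosomes and returns them from degradation, and which endothelial cells and macrophages also express. Fcgrt had 465, 547 and 579 CPM in the lowest, median and highest Cpt1aCKO mouse, against 448, 452, 487, 490.0 and 486 CPM in the floxed controls. In all, 5 of the Cpt1aCKO mice exceeded every control, and the remaining one, S7763, lay within the control range. The log2 fold change was 0.18 ± 0.07 (SE), a difference of 13.1% with a 95% interval from 2.4% to 25% (edgeR, unadjusted p = 0.0189, adjusted p = 0.772; exact permutation p = 0.026). The unadjusted p stayed between 0.00346 and 0.0467 with each of the 11 mice left out in turn, and the adjusted p between 0.498 and 0.9995.

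The light chain that Fcgrt pairs with, beta-2 microglobulin (B2m), averaged 349 ± 71.7 CPM in Cpt1aCKO mice and 299 ± 70.1 CPM in floxed controls (SD, n = 6 and 5; edgeR, adjusted p = 0.889). Of 10 macrophage markers, 9 had a positive fold change, the direction of Fcgrt, against 51.4% of all genes tested. The exception was Csf1r (log2 fold change -0.088), and the median log2 fold change was 0.41. At an unadjusted p under 0.05, 3 were higher, C1qa, C1qb and Cd14, against 3.35% of all genes tested. After adjustment, 0 of the 10 macrophage markers passed. Their summed level was 196 to 342 CPM in Cpt1aCKO mice and 138 to 239 CPM in floxed controls, and the defining marker Adgre1 was low but present, averaging 4.71 CPM in Cpt1aCKO mice and 4.05 CPM in floxed controls. Endothelial markers summed to 259.8 to 559.7 CPM in Cpt1aCKO mice and 314 to 469.7 CPM in floxed controls, with 0 of 7 at an unadjusted p under 0.05. The part of these cells in the Fcgrt values was not tested.

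Dab2 was the other gene past the looser threshold. Disabled-2 is the clathrin adaptor that binds the tail of megalin and is present in proximal tubule cells and in macrophages. It had 528, 553 and 663.5 CPM in the lowest, median and highest Cpt1aCKO mouse, against 497, 487, 539, 513 and 504 CPM in the floxed controls. The top value, in S2394, stood far above the remaining mice, and 3 of the other Cpt1aCKO mice also exceeded every control. The log2 fold change was 0.16 ± 0.07 (SE), a difference of 11.5% with a 95% interval from 0.9% to 23.2% (edgeR, unadjusted p = 0.0345, adjusted p = 0.826; exact permutation p = 0.0108). Without S2394 it was 0.11 with an unadjusted p of 0.0715, and the unadjusted p was also above 0.05 without S2397, S2152, S7601 or S2578, at most 0.0765. The macrophage marker sums given beside Fcgrt apply here as well, and their part in the Dab2 values was not tested.

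The remaining machinery of the coated pit and the endosome differed little between the genotypes. Ap2m1, the AP-2 subunit that reads tyrosine-based sorting signals, averaged 319 ± 18.8 CPM in Cpt1aCKO mice and 328 ± 24.4 CPM in floxed controls (SD, n = 6 and 5), and its interval ran from -11.8% to 7.3%. Rab11a, the GTPase of the recycling endosome, averaged 110.2 ± 5.93 CPM in Cpt1aCKO mice and 113 ± 5.81 CPM in floxed controls (SD, n = 6 and 5), with an interval from -10.5% to 7.1%. These were the tightest intervals of the 10.

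Clcn5 and Ocrl were, per length, the lowest of the 10 and among the most variable. Clcn5, the endosomal chloride-proton exchanger mutated in Dent disease, had 64.2, 89.4 and 102 CPM in the lowest, median and highest Cpt1aCKO mouse, against 73.1, 76.1, 72.6, 84.9 and 89.4 CPM in the floxed controls. The Cpt1aCKO group held both the lowest value, in S2155, and the highest, in S2394. The interval ran from -4.93% to 29.4%, and the log2 fold change was 0.15, or 0.22 without S2155. Ocrl, the inositol 5-phosphatase mutated in Lowe syndrome, averaged 16.3 ± 2.36 CPM in Cpt1aCKO mice and 16.1 ± 1.62 CPM in floxed controls (SD, n = 6 and 5), with an interval from -14.5% to 20%. The sign of its fold change turned with the fit.

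The spread between mice of 1 genotype differed from gene to gene. Among 9210 genes with a mean of at least 10 CPM, the within-genotype SD of log2 CPM was at percentile 4.48 for Rab11a, 10.6 for Ap2m1, 12.1 for Dab2 and 13.3 for Fcgrt. Lrp2 was at percentile 19 and Lrpap1 at 21.8. Amn, Ocrl, Cubn and Clcn5 were at percentiles 45.2, 64.2, 66.4 and 67.9. The first 6 genes were thus steadier than most genes above that level, and Cubn, Clcn5 and Ocrl were more variable than most.

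The levels of the genes relative to each other were compared per length, in TPM (reads divided by merged exon length of GENCODE M21 and scaled to a fixed total per library). Within floxed controls the order was Lrpap1 (625.3 ± 42.9 TPM), Fcgrt (596 ± 32.4), Amn (570 ± 47.2), Ap2m1 (211 ± 11.6), Dab2 (183 ± 8.81), Lrp2 (132 ± 15.5), Rab11a (99.6 ± 1.97), Cubn (42.8 ± 5.58), Clcn5 (18.4 ± 1.92) and Ocrl (4.51 ± 0.504). Only the neighbours among the first 3 overlapped between mice, so the order of the other 7 was the same in every control. Lrpap1 stood above 98.7% of the genes tested, Lrp2 above 93.3% and Ocrl above 43.7%. Read per length, cubilin mRNA was thus present at a lower level than the mRNA of its obligate partner amnionless in every mouse.

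In TPM the Cpt1aCKO libraries lay 0.06 higher on the log2 scale than in TMM-normalized CPM, relative to floxed controls, for every gene alike. That shift alone turned the small negative differences of Ap2m1 and Rab11a to 0.02 and 0.03. On the TPM scale Fcgrt was 653.7 to 747.6 TPM in Cpt1aCKO mice, against 557.3 to 647.0 TPM in floxed controls. On that scale the groups did not overlap, as for 0.513% of all genes higher and 0.16% lower in Cpt1aCKO mice, and the exact permutation p for Fcgrt was 0.00216, the smallest the 462 ways of dividing the mice allow. In Dab2 the groups still overlapped, at 191.5 to 251.2 TPM in Cpt1aCKO mice and 171.9 to 194.0 TPM in floxed controls. For Lrpap1 the log2 difference shrank to -0.08 in TPM, and no Cpt1aCKO mouse lay below every control. Its range was 560.5 to 637.5 TPM in Cpt1aCKO mice and 560.4 to 670.3 TPM in floxed controls. This comparison was chosen after the data were seen and was not adjusted over all genes.

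To set the genes against the tubule they belong to, each was divided by the geometric mean of the 15 other proximal tubule markers, which was 1003 ± 97.8 CPM in Cpt1aCKO mice and 988 ± 33.5 CPM in floxed controls (SD, n = 6 and 5; exact permutation p = 0.801). Relative to it, Dab2 was 0.566 ± 0.0371 in Cpt1aCKO mice and 0.515 ± 0.0337 in floxed controls, with an exact permutation p of 0.0411. For Fcgrt the ratio was 0.537 ± 0.0707 in Cpt1aCKO mice and 0.479 ± 0.0288 in floxed controls, with an exact permutation p of 0.126. Lrpap1 gave 0.886 ± 0.0965 in Cpt1aCKO mice and 0.984 ± 0.0786 in floxed controls (exact permutation p = 0.0996), and Lrp2 gave 0.886 ± 0.0766 in Cpt1aCKO mice and 0.841 ± 0.0854 in floxed controls (exact permutation p = 0.368), a log2 difference of 0.08 that was 0.02 without S7601. For Cubn it was 0.12, and 0.04 without S7601. The p-values of these 10 ratios are not adjusted. Dividing by the markers left the direction of 9 of the 10 genes as it was and turned that of Ocrl.

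Variation from mouse to mouse was compared between the genes over all 11 libraries. Of 45 pairs, 5 had an unadjusted permutation p under 0.05 and 0 had an adjusted p under 0.05, by Pearson or by Spearman correlation. The highest Pearson correlation was that of the 2 large receptors, with r = 0.774 for Lrp2 and Cubn (permutation p = 0.00555, adjusted p = 0.25) and rho = 0.645 (permutation p = 0.0379, adjusted p = 0.341). The r was 0.622 without S7601 and S7762, the mice farthest from the median of Lrp2, and 0.735 after the genotype means were removed. S2394, the highest mouse for both Lrp2 and Cubn, stayed in that check. It therefore does not show whether the relation of Lrp2 and Cubn rests on S2394. Other measures gave other orders: by rank, Cubn and Clcn5 (rho = 0.736; permutation p = 0.0129, adjusted p = 0.341) and Lrp2 and Ocrl (rho = 0.655) were higher, and after the genotype means were removed Amn and Lrpap1 were highest (r = 0.797). Cubn and Dab2 followed with r = 0.76 (permutation p = 0.0125, adjusted p = 0.281) and rho = 0.555 (permutation p = 0.0824), but r was 0.102 without S2394 and S7601, so that this relation rests on those mice. The most negative was Lrp2 with Rab11a, at r = -0.60 (permutation p = 0.0496, adjusted p = 0.38).

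For cubilin and its partner amnionless, r was 0.0556 (permutation p = 0.869) and rho = 0.164 (permutation p = 0.634). For megalin and its chaperone Lrpap1, r was -0.21 (permutation p = 0.542) and rho = -0.23 (permutation p = 0.504). With 11 mice, correlations of this size cannot be told from 0.

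**Figure D4:**
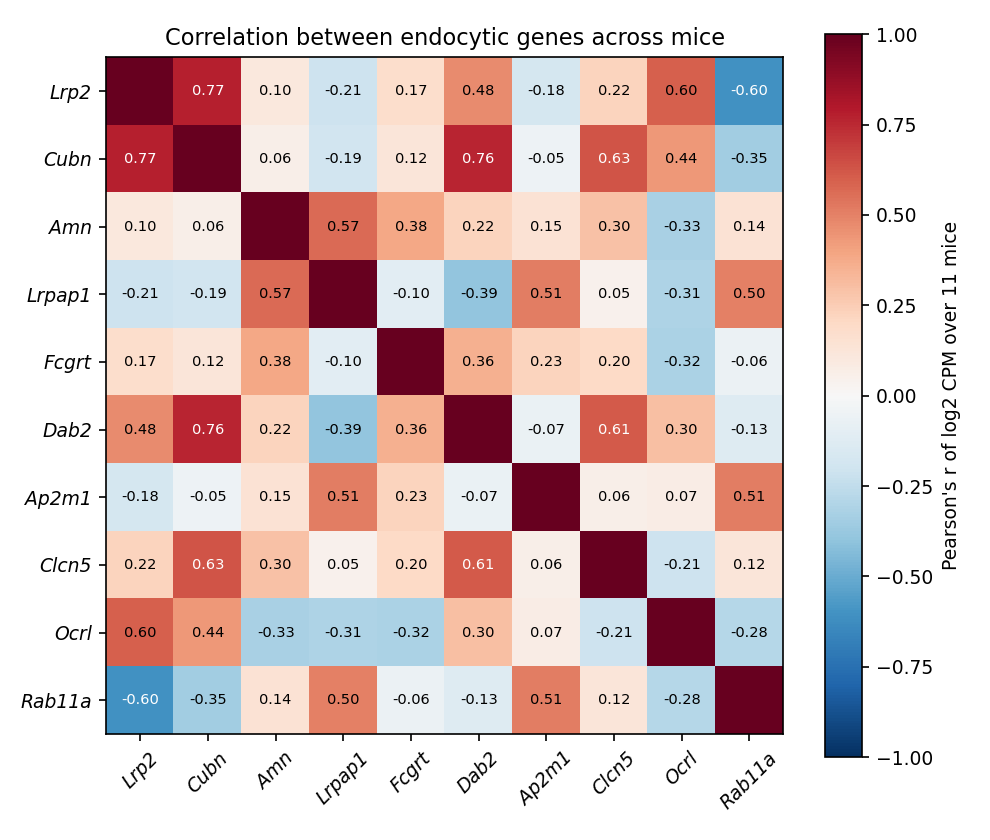
Pearson's r of log2 CPM over the 11 mice is written in each cell for every pair of the 10 genes, red for positive and blue for negative. The highest values are those of Lrp2 with Cubn (0.774), Cubn with Dab2 (0.76), Cubn with Clcn5 (0.629) and Dab2 with Clcn5 (0.615). Lower positive values include Lrp2 with Ocrl (0.598), Amn with Lrpap1 (0.57) and Ap2m1 with Rab11a (0.513). No pair passed after adjustment.

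The route beyond the 10 genes was covered by 7 lists of its other known parts, 151 further genes, of which 149 had enough reads. None passed an adjusted p under 0.05 with edgeR or DESeq2. At an unadjusted p under 0.05, 4 were higher in Cpt1aCKO mice, 2.68% of those tested, and 0 were lower, where 3.35% of all genes tested were higher. Their median log2 fold change was 0.03, and 85 of 149 were positive. The 4 were Scarb2, Itsn2, Vps26a and Myo5b. With DESeq2 the count was 3, without Vps26a, and with voom it was 6, with Cltc and Clcn7 added, and 0 were lower with either.

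Scarb2 encodes LIMP-2, which carries glucocerebrosidase to lysosomes. It had 27.0, 30.9 and 39.0 CPM in the lowest, median and highest Cpt1aCKO mouse, against 27.2, 26.8, 24.5, 26.8 and 26.2 CPM in the floxed controls (log2 fold change 0.27 ± 0.09 SE; edgeR, adjusted p = 0.73). Only the lowest Cpt1aCKO mouse fell within the control range. Itsn2, a scaffold of the coated pit, averaged 56.6 ± 5.18 CPM in Cpt1aCKO mice and 47.7 ± 6.47 CPM in floxed controls (SD, n = 6 and 5; edgeR, adjusted p = 0.772).

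On the recycling side, Vps26a, a subunit of the retromer that retrieves receptors from endosomes, averaged 107 ± 11.02 CPM in Cpt1aCKO mice and 95.01 ± 5.10 CPM in floxed controls (SD, n = 6 and 5; edgeR, adjusted p = 0.838). Myo5b, the motor that moves Rab11 vesicles, averaged 158 ± 20.01 CPM in Cpt1aCKO mice and 139 ± 8.57 CPM in floxed controls (SD, n = 6 and 5; edgeR, adjusted p = 0.839). The groups overlapped for all 4 genes.

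The lists, counted with the members they hold, had medians close to that of all genes. Of the genes tested, 6 of 10 receptors and chaperones were positive (median log2 fold change 0.07), 6 of 12 adaptors of the receptor tails (0.01), 18 of 30 genes of AP-2 and the clathrin coat (0.03) and 18 of 26 genes of the phosphoinositide and early endosome list (0.05). In the recycling list 20 of 31 were positive (0.07), and in the lysosome list 14 of 25 (0.01). Endosomal acidification, the vacuolar proton pump and its chloride exchangers, had 10 of 25 positive and a median of -0.02. The median over all genes tested was 0.01.

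**Figure D5:**
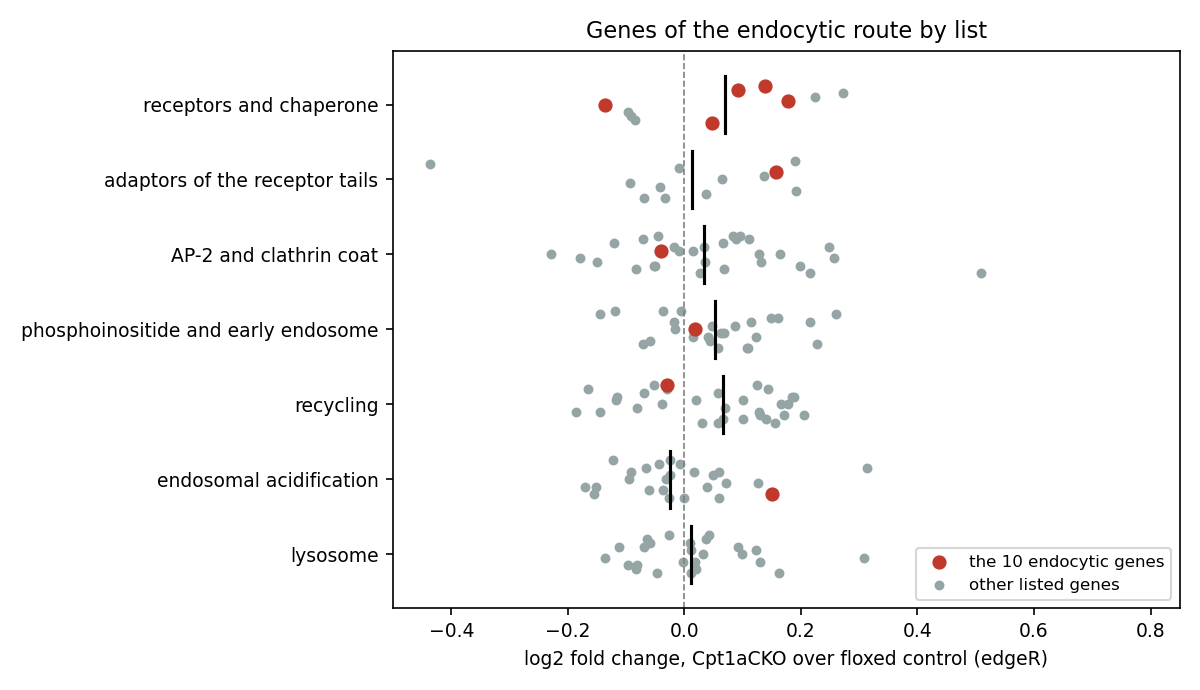
Each point is the log2 fold change of 1 gene, Cpt1aCKO over floxed control, in the list named on the left; red points are the 10 endocytic genes, gray points the other listed genes and black bars the median of each list. The medians lie between -0.02 and 0.07, and none of the points passed after adjustment.

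Among the genes closest to the threshold in each list, clathrin heavy chain (Cltc) averaged 336 ± 61.6 CPM in Cpt1aCKO mice and 281 ± 43.1 CPM in floxed controls (SD, n = 6 and 5; edgeR, adjusted p = 0.863). The folate receptor Folr1, which hands folate to the same route, averaged 471 ± 30.2 CPM in Cpt1aCKO mice and 501 ± 24.5 CPM in floxed controls (edgeR, unadjusted p = 0.167, adjusted p = 0.878). Clcn7, the lysosomal relative of Clcn5, averaged 78.6 ± 4.37 CPM in Cpt1aCKO mice and 72.0 ± 3.55 CPM in floxed controls (adjusted p = 0.845). Ctsa, a lysosomal carboxypeptidase, averaged 503 ± 44.1 CPM in Cpt1aCKO mice and 460.1 ± 14.4 CPM in floxed controls (adjusted p = 0.863). Each of these differences was smaller than could be told from the spread between mice after adjustment.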

How the data were processed

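Kidney cortex RNA of 11 mice was compared unpaired, 6 Cpt1aCKO mice against 5 floxed controls, grouped by the sample labels. The authors aligned the reads with STAR 2.7.3a and deposited raw counts per gene made with HTSeq, which were used here; their normalized values, fold changes and p-values were not. Which genome build and annotation they used was not given in the sources used here. GENCODE M21, which held 53620 (99.66%) of the 53801 identifiers, gave exon lengths.

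Genes were kept by filterByExpr, library sizes were scaled by TMM, and the genotypes were tested in R 4.3.3 with the robust quasi-likelihood test of edgeR 4.0.16, with Benjamini-Hochberg adjustment over all 18160 genes and a threshold of 0.05. A prior count of 2 was added for log2 CPM. Single values were tested by exact two-sided permutation over 462 ways to divide the mice, and correlations by 100000 permutations (scipy 1.17.1). Scripts were checked on simulated counts. Alternatives were DESeq2 1.42.0, voom with sample weights (limma 3.58.1), other normalizations and filters, a fit that is not robust, leaving out each mouse, and a term for the 2 number series of the mice. Between the libraries closest to each other, the squared difference averaged 25.5 times that of sampling noise, so none was counted as a copy. The labels do not say whether mice shared litters or cages. Cubn, Dab2 and Rab11a share at most 368 exon bases with other gene models, which held at most 44 reads. Listed symbols were matched by name or RefSeq synonym.

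The members and lists were chosen with earlier results of these data known. Outside the 10 members, named genes were up to 3 per pathway list with the smallest p, and the 5 genes most like Lrp2. Cpt1a, some cell type markers, and the listed genes that could not be assessed were named as well.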

Additional observations from a re-analysis of the deposited data

Results flagged for a closer look

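Dab2 in Cpt1aCKO mouse S2394 was 663.5 CPM, and its gap to the next Cpt1aCKO mouse was large against the whole range of the 6 mice (Dixon's criterion). The other 5 Cpt1aCKO mice lay between 528 and 563 CPM, and the floxed controls between 487 and 539 CPM. Of 26 groups tested in this way, 1 was found, and chance alone gives about 1 in 20. S2394 was also the highest of the 11 mice for Lrp2, Cubn, Clcn5 and Ocrl.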

How the results depend on the processing

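No paired analysis was possible because the labels give neither litters nor pairs. In every alternative fit, 0 of the 10 genes passed an adjusted p of 0.05 in either direction. At an unadjusted p under 0.05, the 2 genes higher stayed 2 under the other tools, normalizations and filters, and numbered 1 to 3 with each mouse left out, while genes lower numbered 0 to 1. The gene added was Clcn5 without S2155 (unadjusted p = 0.0127), the gene lost was Dab2 without S2394, S2397, S2152, S7601 or S2578, and the gene lower was Lrpap1 without S7602 or S7762. The sign of Ocrl turned in voom (log2 fold change -0.0082), relative to the tubule markers (-0.0053) and without S2155, S2394, S7763, S7601 or S2582 (range -0.030 to 0.071 over all mice left out), and that of Ap2m1 without S2578 (range -0.071 to 0.0013). On the TPM scale, an alternative chosen after seeing the data that shifts all genes alike by 0.06, Ap2m1 (0.023) and Rab11a (0.031) turned positive. Without S2394 the log2 ratio of Lrp2 over Cubn was 0.0041, the upper end of a range that began at -0.077. The cause was not tested. The 10 genes held 613 reads or more in every library; what depth adds to the intervals was not tested. The log2 ratio of Cubn over Amn ranged from 0.0022 to 0.159 with each mouse left out. In the pathway lists, genes higher at an unadjusted p under 0.05 numbered 4 with edgeR, 3 with DESeq2 and 6 with voom. Relative to the tubule markers, the exact permutation p of Fcgrt was 0.126 against 0.026 in CPM.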

Other observations

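With the genotype means removed, the genes whose log2 CPM followed Lrp2 most closely over the 11 mice, of 9201 genes searched, were Cep164 (r = 0.913), Nckipsd (0.896), March6 (0.886), Atad2b (0.882) and Ppm1b (0.881). Cubn came at rank 98 and Ocrl at rank 257, while Rab11a came at rank 8815 with r = -0.58. These values are a description, and the part of sequencing depth or tissue composition in them was not tested.

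The listed genes Hgs and Ccdc22 could not be assessed. Hgs is entered under 2 overlapping gene models with 0 to 2 reads per library, and Ccdc22, whose exons overlap those of other models, had 0 to 1.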
